A study of Homo sapiens with 8 samples.

Results

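Interferon-stimulated genes are the genes that a cell switches on after it senses interferon or foreign nucleic acid. A set of 39 of them was followed here in RNA sequencing of BEAS-2B, a line of immortalised bronchial epithelial cells of human origin kept in LHC-9, a medium without serum. The members were found by gene symbol, all 39 of them among the 50006 entries of the count files. They lie on 16 chromosomes. Cells were exposed for 4 h to PBS (Mock), fibrinogen (FBG), FCP or the fibrinogen αC domain (aC), and each of the 3 proteins was given at 4 ng/µl. FCP is M1-FCP in the sample titles and is tied to Der m 1, an allergen of Dermatophagoides microceras, which is a house dust mite. The labels do not expand its name, and the titles do not say which protein it is made of. The sample labels place the αC domain in fibrinogen, the series title ties it to the allergen, and no source used here says how it was prepared. Each of the 4 groups had 2 libraries, numbered by the labels as biological replicates of 1 wild-type cell line. The main comparison is aC against FCP, and each treatment is also set against Mock.

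Type I and type III interferons bind receptors at the cell surface and activate the kinases JAK1 and TYK2. These lead to the phosphorylation of STAT2, which joins IRF9 in a complex that binds the interferon-stimulated response element (ISRE) in front of target genes. Interferon gamma acts through the gamma-activated site (GAS) instead, and IRF1 is one of its early targets. Some members can also be induced without interferon, by IRF3 or NF-kB after a cytosolic sensor such as RIG-I has fired. In airway epithelium the pathway is known for its part in defence against respiratory viruses.

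Total counts ran from 15137196 to 22258791 per library, so that 3 counts corresponded to between 0.135 and 0.198 CPM, the level of a gene as its count relative to the library's total. Libraries of 1 group were close: across 13575 to 16012 genes the median squared difference between the 2 libraries was 1.21 to 1.27 times what counting error alone gives. The labels do not say whether the replicates were separate cultures, so p-values measure only the spread between these libraries. Mock and the FCP and aC groups differed far beyond the members. KRT5, a keratin of basal epithelial cells, averaged 2.03 CPM in Mock, 7.28 in FBG, 1581 with FCP and 1603 with aC, and COL1A1, a fibroblast collagen chain, averaged 2155, 1089, 173 and 184 CPM. Differences from Mock therefore stand beside a change in markers of cell identity, whose part in them was not tested. In bulk samples such as these, fewer cells of a type and less RNA per cell cannot be told apart. FCP and aC had similar levels of KRT5 and COL1A1, though some other epithelial markers were called between them.

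The interferon response element is visible in the promoters of many members, and these sequences are shown because the genes that carry them are those compared below. RefSeq promoters on GRCh38.p14, from 250 bases before to 50 after each annotated start, were available for 31 of the 39 members. The core ISRE, read on either strand as GAAA, any 2 bases and GAAA, was found in 22 of the 31 (71%), against 4.38% of the 27305 genes with a promoter in the table. The longer form, the core followed by CT, was found in 14 of the 31 (45.2%), against 0.322% of those genes. The GAS letters TTCNNNGAA were found in 9 members (29%), against 9.38% of genes. A match describes letters in a window and is not a measured binding site. MX2, OAS2, TRIM22, USP18, OASL, GBP2, IRF7 and IFIT2 were not searched. In the stretches below, written 5′ to 3′ on the gene's strand, capitals mark the ISRE match in either orientation, or in IRF1 the GAS match. The ISG15 stretch holds another core match, GAAAGGGAAA, left partly in lower case. It overlaps the marked one and starts 113 bases before the gene start. IFIT3 is given with the whole 250 bases before the first of its annotated starts, at chr10:89327747-89327996 on the plus strand, and the others with 15 bases on each side of the match.
IFIT3: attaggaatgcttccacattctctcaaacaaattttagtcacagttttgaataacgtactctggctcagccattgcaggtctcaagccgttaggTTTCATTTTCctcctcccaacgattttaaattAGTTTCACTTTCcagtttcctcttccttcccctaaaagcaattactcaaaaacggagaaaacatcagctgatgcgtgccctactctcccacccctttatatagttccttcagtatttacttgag
IFIT5, chr10:89414506-89414547, plus strand: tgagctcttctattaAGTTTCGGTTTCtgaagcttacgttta
ISG15, chr1:1013375-1013416, plus strand: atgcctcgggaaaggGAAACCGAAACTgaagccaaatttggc
DDX60, chr4:168318779-168318820, minus strand: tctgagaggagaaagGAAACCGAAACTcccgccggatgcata
IFI6, chr1:27672322-27672363, minus strand: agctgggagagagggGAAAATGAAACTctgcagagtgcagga
OAS3, chr12:112938316-112938355, plus strand: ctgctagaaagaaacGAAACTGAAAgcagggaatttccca
GBP1, chr1:89065311-89065350, minus strand: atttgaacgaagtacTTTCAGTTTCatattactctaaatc
PARP14, chr3:122680795-122680834, plus strand: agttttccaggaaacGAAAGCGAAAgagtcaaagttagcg
IRF1, chr5:132490874-132490912, minus strand: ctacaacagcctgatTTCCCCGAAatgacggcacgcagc

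The extended match of IFIT3 starts 124 bases before the gene start and that of ISG15 107 bases before it. PARP9 and DTX3L are neighbours on chromosome 3 that point away from each other and share 175 bases of exon, and the same letters lie in both promoters: AGTTTCAGTTTC as PARP9 reads them and GAAACTGAAACT as DTX3L does. Among the searched members, the core ISRE was present in 15 of the 20 that rose in aC against FCP and in 6 of the 10 that were tested and not called. The 9 searched members without the core were RIGI, IRF1, STAT2, SAMD9L, XAF1, IFI35, HERC6, OAS1 and IRF9.

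In aC against FCP, the interferon-stimulated genes stood higher in aC. Of the 38 members that passed the filter on low counts, 21 rose and 0 fell, where 4.57% of all 16307 tested genes rose and 4.45% fell (9.01% called in either direction). The changes were small: the median log2 fold change of the members was 0.38, against 0.0017 over all tested genes, and IFI44L was the 1 called member that reached 2-fold. Both aC libraries lay above both FCP libraries for 30 members, where 26.7% of all genes did so, and below them for EIF2AK2 and ISG20, where 26.1% of all genes did. A gene was called when edgeR's quasi-likelihood test, adjusted by Benjamini-Hochberg over all tested genes, gave a value under 0.05, and 26 members had an unadjusted p under 0.05. The number called depended on the libraries. It was 12 without FCP replicate 1, 12 without FCP replicate 2, 13 without aC replicate 1 and 12 without aC replicate 2, and DESeq2 called 11, with 0 lower in each of these. RIGI, IRF1, PARP14, OAS3, GBP1, IFIT3, DTX3L, MX1 and PARP9 were called under each of the alternatives that could be fitted for them. ISG15 lost its call with DESeq2, at a log2 fold change of 0.41. OASL, IFI44L, DDX60, SAMD9L, IFI44 and IFI6 were no longer called when any 1 of those 4 libraries was left out, and IFIH1, IFI35, STAT2, TRIM21 and IFIT5 when certain ones were, each with its direction kept.

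**Figure D1:**
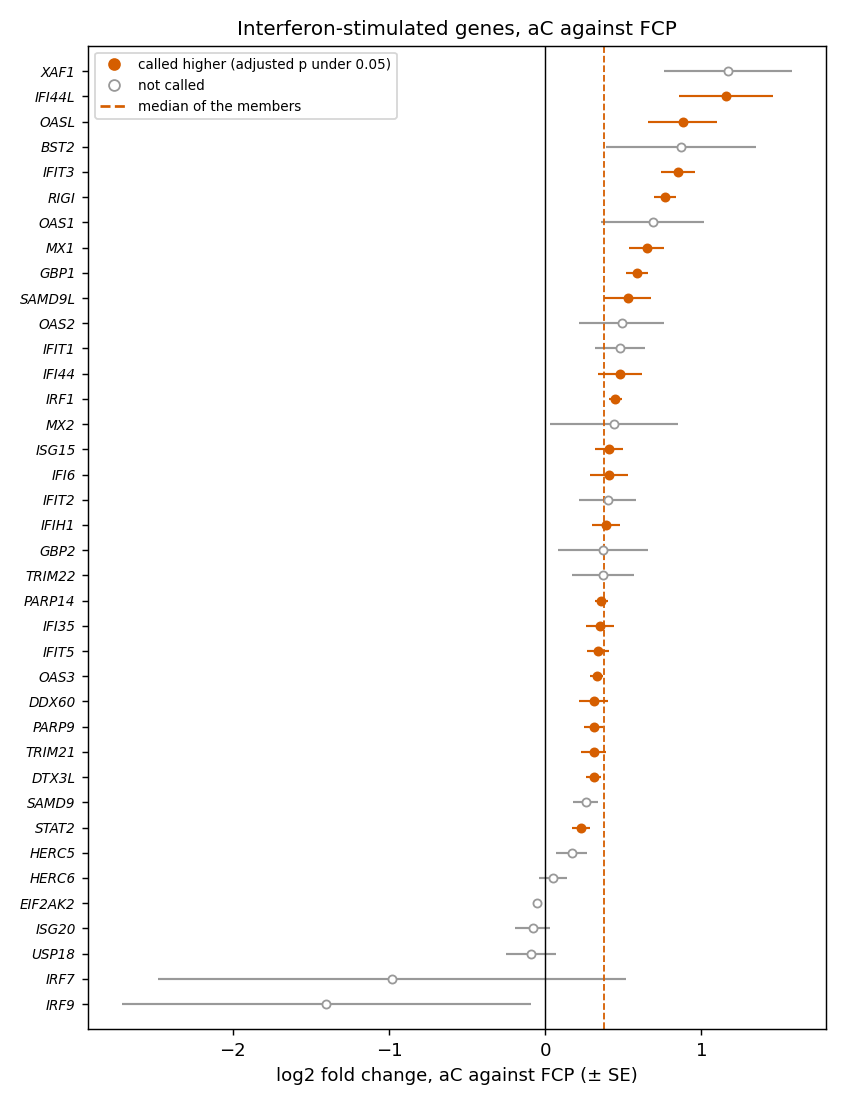
Log2 fold change in aC against FCP for each of the 38 tested members (horizontal axis), with bars of 1 standard error. Filled points mark the 21 members called higher, open points those not called, and the dashed line the median of the members at 0.38. All filled points lie to the right of 0, and the 2 points farthest to the left, IRF7 and IRF9, have the widest bars.

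Of the 4 members that sense foreign RNA or act on it directly in the cytosol, RIGI, IFIH1 and DDX60 rose in aC against FCP. RIGI encodes RIG-I, which detects short viral RNA with a 5′ triphosphate. It measured 7.47 and 8 CPM in Mock, 9.77 and 8.08 in FBG, 36.8 and 33.3 with FCP, and 60.9 and 59 with aC. The FCP libraries stood well above Mock and FBG, and the aC libraries above FCP, with no overlap. RIGI rose by a log2 fold change of 0.77 ± 0.07 (SE) in aC against FCP (adjusted p = 1.29e-07), and by 2.95 ± 0.09 in aC against Mock (adjusted p = 1.13e-18). It lies on chromosome 9 (32455302 to 32526196, minus strand), where the median log2 fold change of 705 genes was 0.59 in aC against Mock and 0.58 in FCP against Mock but 0.0091 between FCP and aC. RIGI's log2 fold changes over Mock and over FCP were each above the chromosome's median. How much of either is shared along the chromosome was not tested.

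IFIH1, which encodes MDA5, the sensor of long double-stranded RNA, measured 11.6 and 10.7 CPM in Mock, 11.6 and 11.5 in FBG, 18.3 and 19.1 with FCP, and 23.1 and 26.1 with aC. Its rise in aC over FCP was 0.39 ± 0.09 on the log2 scale (adjusted p = 0.00411). DDX60 encodes a helicase linked to RIG-I signalling, and measured 4.54 and 5.4 CPM in Mock, 8.83 and 8.29 in FBG, 24.3 and 24.1 with FCP, and 28.9 and 31.1 with aC. The 4 groups did not overlap, and the step from FCP to aC was the smallest on the log2 scale, 0.31 ± 0.09 (adjusted p = 0.0227). EIF2AK2, the kinase PKR that halts translation when it binds double-stranded RNA, did not share that step. It measured 172 and 176 CPM in FCP against 167 and 168 in aC (log2 fold change -0.05 ± 0.03, adjusted p = 0.283). Its higher level than in Mock, at 135 and 131 CPM, turned with the correction for GC content and length, from a log2 fold change of 0.39 to -0.36 in FCP and from 0.34 to -0.41 in aC.

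Among the transcription factors, IRF1 and STAT2 rose in aC against FCP. IRF1 activates many of the other members and responds quickly to interferon gamma. It measured 47.9 and 46.4 CPM in Mock, 31.5 and 30.4 in FBG, 59.1 and 56.6 with FCP, and 78.6 and 79 with aC. The order of the groups was FBG, Mock, FCP and aC, and no 2 groups overlapped. IRF1 rose by 0.45 ± 0.04 on the log2 scale in aC against FCP (adjusted p = 2.93e-07) and fell by 0.61 ± 0.05 in FBG against Mock (adjusted p = 8.1e-10). STAT2, a subunit of the ISRE-binding complex, measured 46.1 and 51.4 CPM in Mock, 39.2 and 37.1 in FBG, 46.2 and 43.4 with FCP, and 51.8 and 52.9 with aC. Its levels in aC lay just above those in Mock, and its difference from FCP was 0.23 ± 0.06 (adjusted p = 0.0107). IRF7 and IRF9 cannot be read from their own entries. Both have a copy on an alternate locus, and replicates differed widely: IRF9 had 100 and 10 counts in the FCP libraries, and IRF7 42 and 6. For IRF7, adding the copy's counts, a step chosen after the values were seen, brought replicates closer, to 8.8 and 8.06 CPM in Mock, 5.26 and 5.39 in FBG, 3.97 and 3.4 with FCP, and 3.76 and 4.69 with aC. On these sums Mock was highest and FCP and aC overlapped, and no test was run on them. The copy of IRF9 had at most 1 count in any library.

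**Figure D2:**
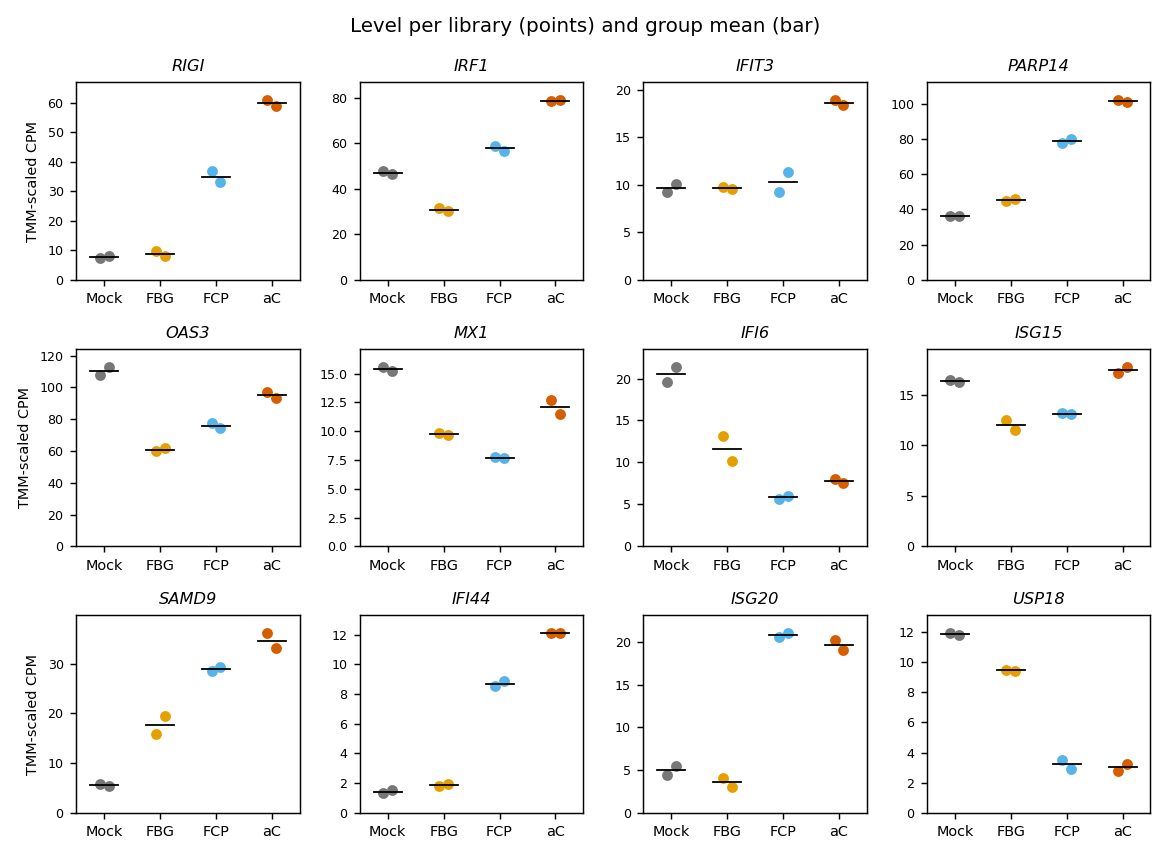
TMM-scaled CPM (vertical axes, each starting at 0) of 12 members in the 4 groups. Points are the 2 libraries of a group and the bar is their mean. RIGI, IRF1, IFIT3, PARP14 and IFI44 are highest in aC. OAS3, MX1, IFI6 and USP18 are highest in Mock.

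The ISG15 system attaches a small ubiquitin-like protein to other proteins, and its parts did not move together. ISG15, the modifier itself, measured 16.5 and 16.3 CPM in Mock, 12.5 and 11.5 in FBG, 13.2 and 13.1 with FCP, and 17.2 and 17.8 with aC. It rose by 0.41 ± 0.09 in aC against FCP (adjusted p = 0.00314), to a level that did not pass the test against Mock (log2 fold change 0.09, adjusted p = 0.343). Its lower level in FCP than in Mock, -0.32 on the log2 scale, turned to 0.18 once GC and length trends were removed. HERC5, the main ligase for ISG15 in human cells, averaged 14.7 CPM in FCP and 16.6 in aC and was not called between them (adjusted p = 0.368). USP18 removes ISG15 from proteins and damps signalling at the interferon receptor. It measured 11.9 and 11.8 CPM in Mock, 9.5 and 9.37 in FBG, 3.49 and 2.92 with FCP, and 2.79 and 3.26 with aC. The gene was low in both FCP and aC, by -1.88 ± 0.16 (adjusted p = 2.52e-10) and -1.97 ± 0.16 (adjusted p = 1.19e-10) on the log2 scale against Mock, and the 2 treatments did not differ detectably from each other (-0.09 ± 0.16, adjusted p = 0.857).

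The IFIT genes encode proteins that bind viral RNA, and they form a cluster on chromosome 10. IFIT3 encodes a partner that stabilises IFIT1 on RNA. It measured 9.27 and 10.1 CPM in Mock, 9.77 and 9.57 in FBG, 9.26 and 11.4 with FCP, and 18.9 and 18.4 with aC. The first 3 groups overlapped and both aC libraries stood above them. IFIT3 rose by 0.85 ± 0.11 on the log2 scale in aC against FCP (adjusted p = 1.08e-05), while its difference between FCP and Mock was 0.10 ± 0.11 (adjusted p = 0.44). IFIT5 measured 19.9 and 18.1 CPM in Mock, 23.8 and 24.5 in FBG, 19.9 and 20.6 with FCP, and 25.6 and 25.6 with aC, so that FBG and aC were both above FCP. Its rise over FCP was 0.34 ± 0.07 (adjusted p = 0.00347). IFIT1, which recognises RNA lacking a 2′-O-methylated cap, was not called: it measured 4.37 and 4.85 CPM in FCP and 5.79 and 7.06 in aC (0.48 ± 0.16, adjusted p = 0.0698). Of its exon length, 24.9% is shared with a gene on the other strand, and counting took no account of strand. IFIT2 averaged 6.83 CPM in FCP and 9.01 in aC (0.40 ± 0.18, adjusted p = 0.196), against 3 in Mock.

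The OAS enzymes make a second messenger that activates RNase L, and OAS3 was their most abundant member per exon length in each group. It measured 108 and 113 CPM in Mock, 60 and 61.6 in FBG, 77.4 and 74.2 with FCP, and 97.1 and 93.4 with aC. All 3 treatments lay below Mock, FBG the lowest and aC the nearest. OAS3 rose by 0.33 ± 0.04 in aC against FCP (adjusted p = 1.97e-06) and fell by 0.87 ± 0.04 in FBG against Mock (adjusted p = 3.42e-14). The difference between aC and Mock was -0.22 ± 0.04 with TMM scaling and 0.01 with scaling to library size alone, so its direction is not settled. OASL, a relative without the enzymatic activity that enhances RIG-I signalling, took the opposite course from Mock. It measured 0.867 and 1.73 CPM in Mock, 1.89 and 1.75 in FBG, 4.32 and 4.02 with FCP, and 7.99 and 7.4 with aC, a rise of 0.88 ± 0.22 over FCP (adjusted p = 0.0106). OAS1 and OAS2 averaged 1 and 1.46 CPM in FCP and 1.63 and 2.05 in aC, and neither was called between them (adjusted p = 0.239 and 0.332).

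MX1 and GBP1, GTPases that restrict viruses and intracellular pathogens, rose in aC against FCP from different starting points. MX1 measured 15.6 and 15.2 CPM in Mock, 9.84 and 9.7 in FBG, 7.78 and 7.64 with FCP, and 12.7 and 11.5 with aC. It was highest in Mock and lowest in FCP, and its rise in aC over FCP was 0.65 ± 0.11 (adjusted p = 0.000246). GBP1 measured 22.1 and 24.1 CPM in Mock, 34.8 and 37.1 in FBG, 25.7 and 28.5 with FCP, and 42.4 and 38.9 with aC. For this gene FBG and aC were the 2 high groups, and the rise of aC over FCP was 0.59 ± 0.07 (adjusted p = 3.44e-06). MX2 and GBP2 had at most 2.03 CPM in any library and were not called in any of the 4 comparisons.

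All 3 members tied to ADP-ribosylation rose in aC against FCP. PARP14 encodes a mono-ADP-ribosyltransferase, and PARP9 and DTX3L form a complex that joins ADP-ribosylation with ubiquitin transfer. PARP14 measured 36.3 and 36 CPM in Mock, 44.8 and 45.9 in FBG, 78 and 79.9 with FCP, and 102 and 101 with aC. The 4 groups stood in that order without overlap, and the step from FCP to aC was 0.36 ± 0.04 (adjusted p = 6.23e-07). DTX3L measured 44.8 and 46.6 CPM in Mock, 39.3 and 37.3 in FBG, 56.7 and 58.1 with FCP, and 68.6 and 73.5 with aC, a rise of 0.31 ± 0.05 over FCP (adjusted p = 0.000119). Its neighbour PARP9 measured 28.5 and 29.9 CPM in Mock, 31.5 and 30.4 in FBG, 27.7 and 28.2 with FCP, and 34.8 and 34.4 with aC. The pair had the same step from FCP to aC, PARP9 by 0.31 ± 0.06 (adjusted p = 0.00172). Against Mock they differed: in FCP, DTX3L rose by 0.33 ± 0.05 and PARP9 was not called (-0.06 ± 0.06, adjusted p = 0.389).

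SAMD9 and SAMD9L are adjacent antiviral genes on chromosome 7, and they were the members with the largest rise in FBG against Mock. SAMD9 measured 5.87 and 5.33 CPM in Mock, 15.9 and 19.4 in FBG, 28.5 and 29.4 with FCP, and 36.1 and 33.2 with aC. It rose by 1.66 ± 0.10 in FBG against Mock (adjusted p = 4.68e-12), and its step of 0.26 ± 0.08 from FCP to aC just missed the threshold (adjusted p = 0.0587). SAMD9L measured 1.33 and 1.2 CPM in Mock, 4.99 and 5.32 in FBG, 6.38 and 6.37 with FCP, and 9.81 and 8.63 with aC. It rose by 2.02 ± 0.19 in FBG against Mock (adjusted p = 3.77e-09) and by 0.53 ± 0.15 in aC against FCP (adjusted p = 0.0301). Both genes stood in the order Mock, FBG, FCP and aC without overlap.

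TRIM21, a cytosolic antibody receptor and ubiquitin ligase, measured 20.1 and 21 CPM in Mock, 17 and 17.6 in FBG, 15 and 15.8 with FCP, and 18.2 and 19.9 with aC. It rose by 0.31 ± 0.08 in aC against FCP (adjusted p = 0.0189). The lower level in FCP than in Mock, -0.42 on the log2 scale, became 0.0058 once GC and length trends were removed. TRIM22, an antiviral relative, averaged 1.8 CPM in Mock, 4.65 in FCP and 6.03 in aC, and was not called between FCP and aC (adjusted p = 0.319).

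The remaining effectors split into genes above and genes below Mock. IFI44, an antiviral gene beside IFI44L on chromosome 1, measured 1.33 and 1.53 CPM in Mock, 1.82 and 1.95 in FBG, 8.52 and 8.9 with FCP, and 12.1 and 12.1 with aC. It rose by 3.08 ± 0.17 in aC against Mock (adjusted p = 1.26e-13) and by 0.48 ± 0.14 in aC against FCP (adjusted p = 0.035). IFI44L measured 0.8 and 0.466 CPM in Mock, 0.539 and 0.539 in FBG, 0.917 and 1.35 with FCP, and 2.37 and 2.71 with aC. It had the largest called rise over FCP among the members, 1.16 ± 0.30 (adjusted p = 0.0161), on low counts. XAF1, a pro-apoptotic factor, had a similar change that was not called: 0.393 and 0.655 CPM in FCP and 1.06 and 1.31 in aC (1.17 ± 0.41, adjusted p = 0.0842). It passed the filter on low counts only through the aC libraries, where it was high.

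IFI6 and IFI35 were lower than Mock in all 3 treatments, and higher in aC than in FCP. IFI6, a mitochondrial and endoplasmic reticulum protein that limits flavivirus replication, measured 19.6 and 21.4 CPM in Mock, 13.1 and 10.2 in FBG, 5.68 and 6.02 with FCP, and 8.08 and 7.53 with aC. It fell by 1.81 ± 0.12 in FCP against Mock (adjusted p = 8.26e-12) and rose by 0.41 ± 0.12 in aC against FCP (adjusted p = 0.0377). IFI35, a partner of the transcriptional regulator NMI, measured 28.9 and 29.8 CPM in Mock, 19.5 and 18.8 in FBG, 10.1 and 9.38 with FCP, and 12.6 and 12.3 with aC, a rise of 0.35 ± 0.09 over FCP (adjusted p = 0.00912). ISG20, an exonuclease that degrades single-stranded RNA, measured 4.47 and 5.46 CPM in Mock, 4.11 and 3.03 in FBG, 20.6 and 21 with FCP, and 20.2 and 19.1 with aC. It rose with FCP and aC against Mock, by 2.06 ± 0.13 and 1.98 ± 0.13, and did not differ detectably between them (-0.08 ± 0.11, adjusted p = 0.78). BST2, which tethers budding virus at the membrane, averaged 0.437 CPM in FCP and 0.804 in aC (adjusted p = 0.339). IFI27 did not pass the filter on low counts, with 1, 2, 1, 0, 2, 2, 1 and 0 counts in the Mock, FBG, FCP and aC libraries in turn, and it has a copy on an alternate locus.

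Against Mock, the members were called about as often as any gene. In aC, 22 of the 38 rose and 6 fell, where 38% of all genes rose and 36.7% fell (74.7% called). In FCP, 19 rose and 10 fell, where 37.3% of genes rose and 36.1% fell (73.4% called). In FBG, 8 rose and 12 fell, where 24.2% rose and 26.3% fell (50.4% called). The median log2 fold change of the members was 0.53 in aC, 0.26 in FCP and -0.17 in FBG, against 0.06, 0.06 and 0.02 over all genes. Without IRF7 and IRF9 it was 0.69, 0.26 and -0.06. These comparisons share the Mock libraries. Scaling to library size alone moved the median of all genes from 0.06 to 0.29 in aC, from 0.06 to 0.28 in FCP and from 0.02 to 0.13 in FBG. It gave 25 members higher and 3 lower in aC, 22 and 8 in FCP, and 12 and 10 in FBG, so the FBG split has no settled direction.

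**Figure D3:**
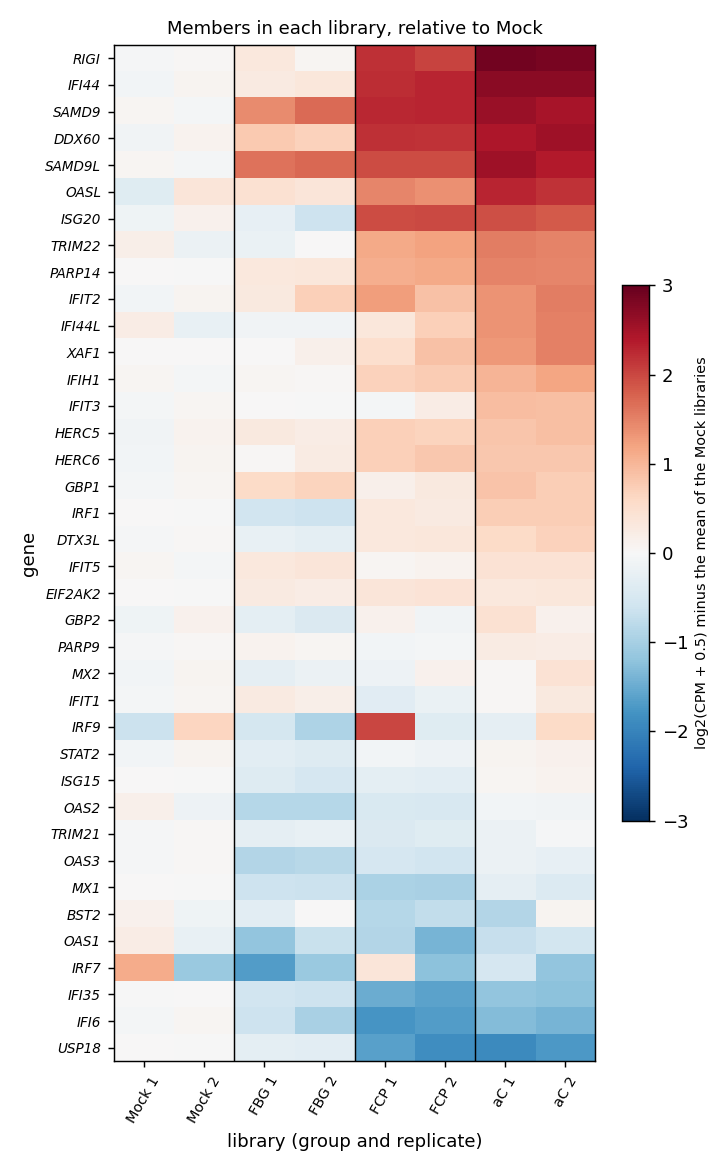
Level of each of the 38 tested members (rows) in each of the 8 libraries (columns), as log2(CPM + 0.5) minus the mean of the 2 Mock libraries. Red is above and blue below Mock, colours are full at 3 and -3, and rows are ordered by the mean of aC. The FCP and aC columns share most of their pattern, with members above Mock at the top from RIGI down and members below Mock at the bottom, down to USP18.

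The calls of each gene can be set side by side, though the comparisons share libraries. How many of all tested genes have each pattern or each highest group was not counted, so these patterns only describe the members. Of all genes, 74.7% were called in aC against Mock and 73.4% in FCP against Mock. In DDX60, DTX3L, GBP1, IFI44, IFI44L, IFIH1, IRF1, OASL, PARP14, RIGI and SAMD9L, expression rose in both treatments against Mock and also between FCP and aC. IFIT3, IFIT5 and PARP9 rose in both comparisons of aC and were not called in FCP against Mock. IFI35, IFI6, MX1 and OAS3 were called lower than Mock in both FCP and aC, and higher in aC than in FCP. ISG15 and TRIM21 were called lower than Mock in FCP and not in aC. In EIF2AK2, HERC5, HERC6, IFIT2, ISG20, SAMD9, TRIM22 and XAF1, the level was called higher than Mock in both and not called between them. The highest group mean was in aC for 24 of the 38 tested members, in Mock for 10, in FCP for 3 and in FBG for 1. Some of these calls were not stable. IFI44L lost its call in FCP against Mock under 10 of 17 alternatives, and GBP1 under 5. In aC against Mock, MX1 lost its call under 5 of 17. IFIT5 and PARP9 lost theirs there under 2 each, with log2 fold changes as low as 0.01 and 0.00. With GC content and length trends removed, EIF2AK2 turned to -0.36 in FCP and -0.41 in aC against Mock. XAF1 passed the filter on low counts only through the aC libraries, where it was high, so its calls against Mock add no support.

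In FBG, members went both ways against Mock, as genes in general did: 21.1% of the members rose and 31.6% fell, where 24.2% and 26.3% of all genes did. SAMD9, SAMD9L, DDX60, GBP1, PARP14, IFIT5, IFIT2 and EIF2AK2 rose against Mock, DDX60 by 0.78 ± 0.11 (adjusted p = 1.41e-06) and GBP1 by 0.64 ± 0.07 (adjusted p = 1.34e-07). With GC and length trends removed, EIF2AK2 turned to -0.18 and PARP14 and IFIT5 lost their calls. The 12 that fell were OAS1, OAS2, OAS3, IFI6, IFI35, MX1, IRF1, STAT2, ISG15, ISG20, DTX3L and TRIM21. MX1 fell by 0.66 ± 0.11 (adjusted p = 2.25e-05) and IFI6 by 0.81 ± 0.12 (adjusted p = 5.74e-06). RIGI, at 9.77 and 8.08 CPM in FBG, was not called (0.21 ± 0.10, adjusted p = 0.177). IRF1, DTX3L and ISG20 were called in opposite directions in FBG and FCP against the same Mock libraries: IRF1 at -0.61 and 0.30, DTX3L at -0.26 and 0.33, and ISG20 at -0.47 and 2.06. The lower ISG20 in FBG lost its call under 7 of 17 alternatives, the lower TRIM21 under 6 and the higher IFIT2 under 4.

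Levels can be compared between genes only per length, here as TPM, counts divided by the exon length in the files and scaled to the same sum in each library. In aC the most abundant members were ISG15 at 92 TPM, IRF1 at 61.7, EIF2AK2 at 55, OAS3 at 48.3, GBP1 at 47.1 and RIGI at 43.2. In Mock the order was led by ISG15 at 64.4 TPM, IFI6 at 61.4 and IFI35 at 53.8, with RIGI at 4.17. The antiviral effectors IFI6 and IFI35 were thus among the leading members without treatment, and stood at 31.2 and 30.5 TPM in aC. XAF1, IFI44L, MX2, GBP2, OAS1 and OAS2 averaged at most 1.5 TPM in any group. TPM ranks members within a group, and changes between groups are those of the fits above. ISG15, at 64.4 TPM in Mock and 92 in aC, was not called between them (log2 fold change 0.09).

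Of 22 interferon ligand genes, IFNE alone passed the filter. IFNE, an interferon known for its expression in epithelia of the reproductive tract, measured 0.0667 and 0.133 CPM in Mock, 0.0674 and 0.337 in FBG, 1.97 and 1.7 with FCP, and 1.78 and 2.2 with aC. It rose against Mock in FCP (adjusted p = 3.21e-07) and in aC (adjusted p = 1.81e-07). IFNE passed the filter on low counts only through the FCP and aC libraries, where it was high, so its calls against Mock add no support. On 3 summed counts in Mock, the ratio of levels was 18.3 in FCP (95% counting interval 6.06 to 90.7) and 19.9 in aC (6.6 to 98.1). Between aC and FCP it was not called (log2 fold change 0.12 ± 0.32, adjusted p = 0.904). IFNB1, the interferon most cells make first, had 1 count in each aC library and 0 in the other 6, where 0 counts allow up to 0.138 CPM in FCP. IFNL1 had 0 in all 8, but it has a copy on an alternate locus, as the other lambda interferon genes do, so its reads may have gone uncounted. Interferon protein was not measured.

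The receptors and JAK-STAT genes were expressed in all groups, and 4 of 12 rose in aC against FCP with 0 lower, all by little. Of all genes, 4.57% rose and 4.45% fell. STAT3 rose by 0.15 ± 0.02 (adjusted p = 3.41e-05), IFNGR1, a chain of the interferon gamma receptor, by 0.28 ± 0.05 (adjusted p = 0.00105), and TYK2 by 0.11 ± 0.03 (adjusted p = 0.0234). TYK2 lost its call under 7 of 17 alternatives. IFNAR1, IFNAR2 and JAK1 were not called, at 0.04 ± 0.04, 0.13 ± 0.07 and -0.02 ± 0.03.

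Of 15 tested nucleic acid sensors and adaptors that are not members, 5 rose in aC against FCP and 0 fell, against 4.57% and 4.45% of all genes. IKBKE, the kinase that phosphorylates IRF3 together with TBK1, measured 11.7 and 13 CPM in Mock, 9.37 and 11.7 in FBG, 20 and 19 with FCP, and 35.5 and 37.2 with aC, a rise of 0.90 ± 0.09 (adjusted p = 2.95e-07). TRIM25, a ubiquitin ligase that promotes RIG-I signalling, averaged 224 CPM in Mock, 157 in FCP and 192 in aC and rose by 0.29 ± 0.02 over FCP (adjusted p = 1.89e-08). IRF3 rose by 0.15 ± 0.04 (adjusted p = 0.017) and lost its call under 6 of 17 alternatives. Among 14 negative regulators, 3 rose: SOCS3, a feedback inhibitor of JAK kinases, had the largest change, from 19.1 and 16.5 CPM in FCP to 30.1 and 29.5 in aC (0.74 ± 0.09, adjusted p = 6e-06). ADAR and IRF2 were the other two, and IRF2 lost its call under 8 of 17 alternatives.

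A separate list of 48 further interferon-stimulated genes, none of them members, had calls in the same direction. Of the 43 tested, 19 rose in aC against FCP and 0 fell, where 4.57% of all genes rose and 4.45% fell. Their median log2 fold change was 0.21. The count was 12 without FCP replicate 2. HELZ2, a helicase, rose by 0.63 ± 0.04 (adjusted p = 7.31e-10), PML, the scaffold of nuclear bodies, by 0.51 ± 0.04 (adjusted p = 1.03e-09), and ZNFX1, an RNA sensor, by 0.36 ± 0.02 (adjusted p = 3.11e-10). PML averaged 120 CPM in Mock, 76.4 in FBG, 73.4 with FCP and 104 with aC, so that like MX1 it was highest in Mock. Against Mock this list of 43 tested genes had 15 higher and 14 lower in aC, where 38% and 36.7% of all genes were. In FCP it had 13 and 18, against 37.3% and 36.1%, and in FBG 6 and 19, against 24.2% and 26.3%. Of 6 chemokines, 2 were tested in aC against FCP. CCL2, a monocyte attractant, rose from 3.71 and 4.76 CPM in FCP to 11.8 and 10.6 in aC (1.40 ± 0.15, adjusted p = 7.1e-07). CXCL10, a T cell attractant, rose from 8 to 50 summed counts (2.55 ± 0.63, adjusted p = 0.0103). It passed the filter on low counts only through the aC libraries, where it was high, so its call adds no support. CXCL11, at 12 summed counts in FCP and 15 in aC, was not tested. CCL2 measured 15.4 and 14.3 CPM in Mock, above all 3 treatments, and CXCL10 had 0 counts there.

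**Figure D4:**
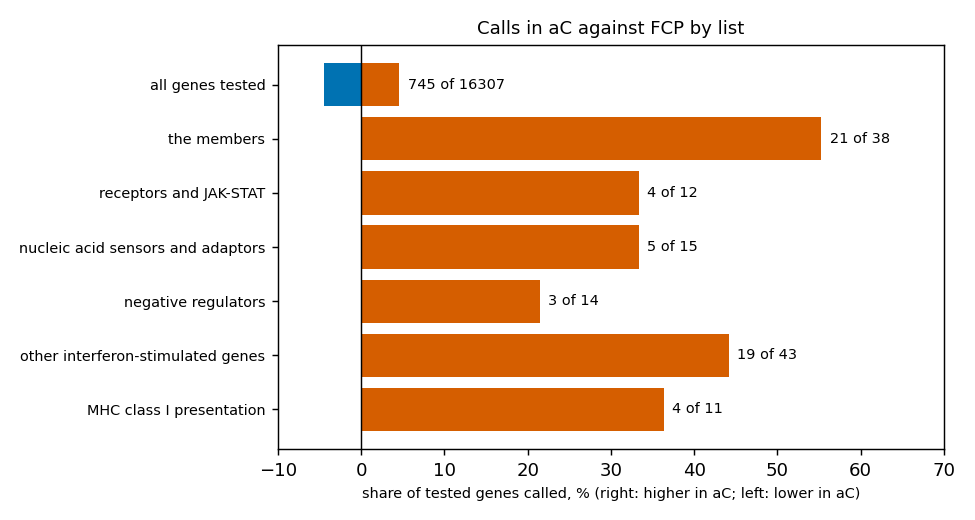
Share of tested genes called in aC against FCP (horizontal axis, percent), to the right for higher and to the left for lower, for all genes, the members and the 5 pathway lists with at least 5 tested genes; marker lists of cell types are not drawn. The printed numbers are genes called higher of genes tested. All genes split evenly, with 745 of 16307 called higher, while the members, at 21 of 38, and these 5 lists have calls to the right only. Of the 11 tested MHC class I genes, 8 have a copy on an alternate locus.

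Markers of blood cells were mostly at or near 0. Of 16 blood and immune markers, 3 passed the filter (CD14, CD68 and CD74) and 0 were called in aC against FCP. Their summed level was 31.2 to 31.7 CPM in the FCP libraries and 33.4 to 33.7 in aC. CD3E, TYROBP and CLEC4C had 0 counts in all 8 libraries, and PTPRC, which has a copy on an alternate locus, had 1 count in all. Of 11 epithelial markers, 2 rose and 3 fell in aC against FCP, where 4.57% of all genes rose and 4.45% fell. Their summed levels were 7399 to 7487 CPM in FCP and 7309 to 7353 in aC. TP63, a basal cell transcription factor, was 1 of the 2 that rose, at 79.1 and 79.4 CPM in FCP and 110 and 108 in aC. The median log2 fold change of the 11 epithelial markers in aC against FCP was -0.06, against 0.0017 over all tested genes. In aC against Mock all 11 epithelial markers rose and 6 of 7 tested fibroblast markers fell, where 38% of all genes rose and 36.7% fell.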

How the data were processed

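The authors deposited raw counts of read pairs per gene, 1 file per library. Per the file headers they counted with featureCounts 1.6.0 from paired ends, adding up the exons of a gene without using strand or reads that map to several places, and the submitters' processing notes name version 1.6.2. Those notes also name Trimmomatic 0.39, HISAT2 2.2.1 and SAMtools 1.9, without their roles, and the build GRCh38.p14. Reads of IRF7, IRF9 and IFI27, which have a copy on an alternate locus, can be split or lost.

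Groups came from the treatment labels. All 8 libraries entered 1 fit in edgeR 4.0.16 (R 4.3.3; robust quasi-likelihood test, TMM scaling, low counts removed by filterByExpr), with 4 residual degrees of freedom and a common biological coefficient of variation of 0.102. Benjamini-Hochberg adjustment was made within each of 4 comparisons, and genes under 0.05 were called. Standard errors are approximate and lay below the counting error, so were too small, for 2 of the 38 members in aC against FCP and, against Mock, for 9 in aC, 16 in FCP and 27 in FBG. CPM values use TMM-scaled library sizes.

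The members and gene lists were chosen with earlier results of these data known, so nothing here is independent support for them. Values lead with each called member and the 3 uncalled members of smallest p in aC against FCP, up to 8 called members of smallest p in each direction against Mock, and members under the filter. The values of 1 gene on the lists are not reported here. Alternatives were other scalings and filters, DESeq2 1.42.0, fits on 2 groups, GC content and length corrections (GENCODE transcripts, 38 of 39 members), a replicate block and leaving out each library. Floors cover counting error only. Promoter sequences are RefSeq's, on GRCh38.p14.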

Additional observations from a re-analysis of the deposited data

How the results depend on the processing

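In aC against FCP, 0 members were called lower under any of the 17 alternatives, and the median log2 fold change of the members stayed between 0.35 and 0.41 when single libraries were left out. The number called was 11 with DESeq2 and ran from 12 to 22 when single libraries were left out; the 12 and 13 came from leaving out an FCP or aC library, which leaves that group with 1 library that is assumed to vary like the others. Over all genes DESeq2 called 877 instead of 1470, and scaling to library size alone gave 828 higher and 574 lower instead of 745 and 725. Against Mock, and likewise without single libraries, between 27 and 29 members were called in aC, between 24 and 30 in FCP and between 18 and 20 in FBG.

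The median of the members in aC against Mock moved from 0.53 to 0.77 with library size alone, to 0.67 with a filter of at least 1 CPM in at least 2 libraries, and ran from 0.52 to 0.69 without single libraries. In FCP against Mock it moved to 0.48 with library size alone and ran from 0.24 to 0.30. In FBG against Mock it was -0.06 with library size alone and 0.02 with only those 2 groups fitted, and ran from -0.23 to 0.0031, being 0.0031 without Mock replicate 1 and 0.00094 without FBG replicate 1, so its sign is not settled; the cause was not tested. OAS3 in aC against Mock turned to 0.01 with library size alone. With GC content and length trends removed, in FCP against Mock EIF2AK2 turned to -0.36, TRIM21 to 0.0058 (0.0056 with the replicate block) and ISG15 to 0.18. EIF2AK2 likewise turned to -0.41 in aC against Mock and to -0.18 in FBG against Mock.

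Equal replicate numbers did not pair the libraries: the correlations of their deviations lay between -0.028 and 0.057. With the replicate block, 21 members were called in aC against FCP, 28 in aC against Mock, 27 in FCP against Mock and 20 in FBG against Mock.

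SAMD9, IFIT1 and XAF1 passed the threshold in aC against FCP with only those 2 groups fitted and with GC content and length trends removed. XAF1 passed the filter on low counts only through the aC libraries, so this adds no support for it. Depth limits the low members: MX2, XAF1 and BST2 had at most 1.31 CPM in any library and standard errors of 0.41 to 0.48 on the log2 scale in aC against FCP.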
